A study of Mus musculus with 3 samples.

Results

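Interleukins are secreted signalling proteins by which immune and tissue cells address one another, and each acts through a receptor assembled from chains that are often shared between several interleukins. The genes described here are the 83 of the 24411 genes tabulated whose symbol begins with Il followed by a digit. By role they divide into 41 receptor chains, 39 ligands and 3 others. The letter r after the number set receptor chains apart, with 2 exceptions: Il6st, which encodes the shared signal-transducing chain gp130, was counted with the receptors, and Il1rn, which encodes a secreted antagonist of IL-1, with the ligands. The others were Il18bp (a secreted protein that binds IL-18), Il4i1 (an amino acid oxidase) and Il1bos (an RNA antisense to Il1b).

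The libraries came from microglia, the resident macrophages of the brain, of C57BL/6J mice labelled 6 to 8 weeks old, with brain as the tissue. The mice were Mir137 loxP/loxP;Tmem119-CreERT2 (cKO), in which tamoxifen activates a Cre recombinase made by Tmem119-expressing cells and so deletes the gene of miR-137, and a Pu.1 inhibitor is the treatment given for every sample. Pu.1 is a transcription factor on which macrophage identity depends. The 3 libraries formed 1 group, replicates 1 to 3, so neither the loss of miR-137 nor the inhibitor can be assessed from them, and untreated cKO and Mir137-intact (cWT) microglia were not analysed here. The design text gives 4 mice and tamoxifen for 7 days at 7 to 8 weeks of age, without saying which animals entered which replicate or whether the inhibitor was given to mice or to cells, so the spread between replicates may be technical.

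In macrophages, IL-1α and IL-1β are made as precursors after inflammatory stimulation. IL-1β is cut to its active form by caspase-1, and IL-1 activity is held back by a receptor antagonist and by a decoy receptor. IL-10 and IL-4 act on microglia through JAK kinases and STAT factors, and IL-34 maintains microglia through the CSF1 receptor.

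Depth was 17180404, 15710750 and 16356125 estimated counts in replicates 1, 2 and 3. For a gene with 0 counts, the upper limit (3 counts, counting error alone) was 0.175, 0.191 and 0.183 CPM, which are counts scaled to library size. All 10 microglial marker genes were detected, with summed levels of 13700.1 to 14351.7 FPKM (fragment counts scaled for transcript length and library size). Genes of other cells were present in the same libraries. All 12 neutrophil genes were detected (summed 14232.7 to 15716.9 FPKM), and most of that sum came from S100a8 and S100a9, which averaged 8800 and 4055.7 FPKM. In normalised CPM, which do not allow for transcript length, the neutrophil genes summed to 3519.2 ± 153 and the microglial genes to 30272.2 ± 472 (SD, n = 3). All 7 endothelial (2259.6 to 2431.1 FPKM), 6 choroid plexus and ependymal (6225.2 to 7106.5) and 6 monocyte genes (577.4 to 660.1) were also detected. So were all 6 border-associated macrophage (248.3 to 264.4), 6 astrocyte (156 to 173) and 7 oligodendrocyte genes (285 to 339). Detection was partial for mural and fibroblast genes (5 of 7, 239.8 to 266 FPKM), T and NK cell genes (3 of 10, 16.1 to 22.7), B cell genes (1 of 5, 13.8 to 19.9), mast cell and basophil genes (2 of 6, 5.98 to 12.3), erythroid genes (2 of 5, 47.8 to 86.2) and neuronal genes (3 of 7, 18.6 to 20.9, with Nefl at 0).

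Of the 83 genes, 34 were detected, where detection required 1 FPKM or more in each library. That is 41% of them, against 47.8% of all genes tabulated and 55.5% of the protein-coding genes. Another 30 had counts without reaching that level, and 19 had no count. Just inside the threshold were Il4i1, Il12rb2 and Il17rd, with lowest values of 1.02, 1.31 and 1.31 FPKM, and just outside it were Il20rb, Il2rb and Il27, with lowest values of 0.95, 0.80 and 0.55 FPKM. Receptor chains were detected more often than ligands, 22 of 41 (53.7%) and 10 of 39 (25.6%). The median level of the receptor chains was 1.42 ± 0.20 and that of the ligands 0.03 ± 0.03 on the log2(FPKM + 1) scale. The difference was 1.38 ± 0.18 (SD, n = 3 libraries). The median was 0.95 ± 0.02 for all genes and 1.88 ± 0.02 for the protein-coding genes, so the receptor chains lay between these. In these bulk libraries, fewer cells of a type and less RNA per cell cannot be told apart. Receptor chains made up 68.4 ± 0.63% and ligands 30.8 ± 0.63% of the summed FPKM of the 83 genes (SD, n = 3), and all 83 took 0.333 ± 0.004% of all counts.

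**Figure D1:**
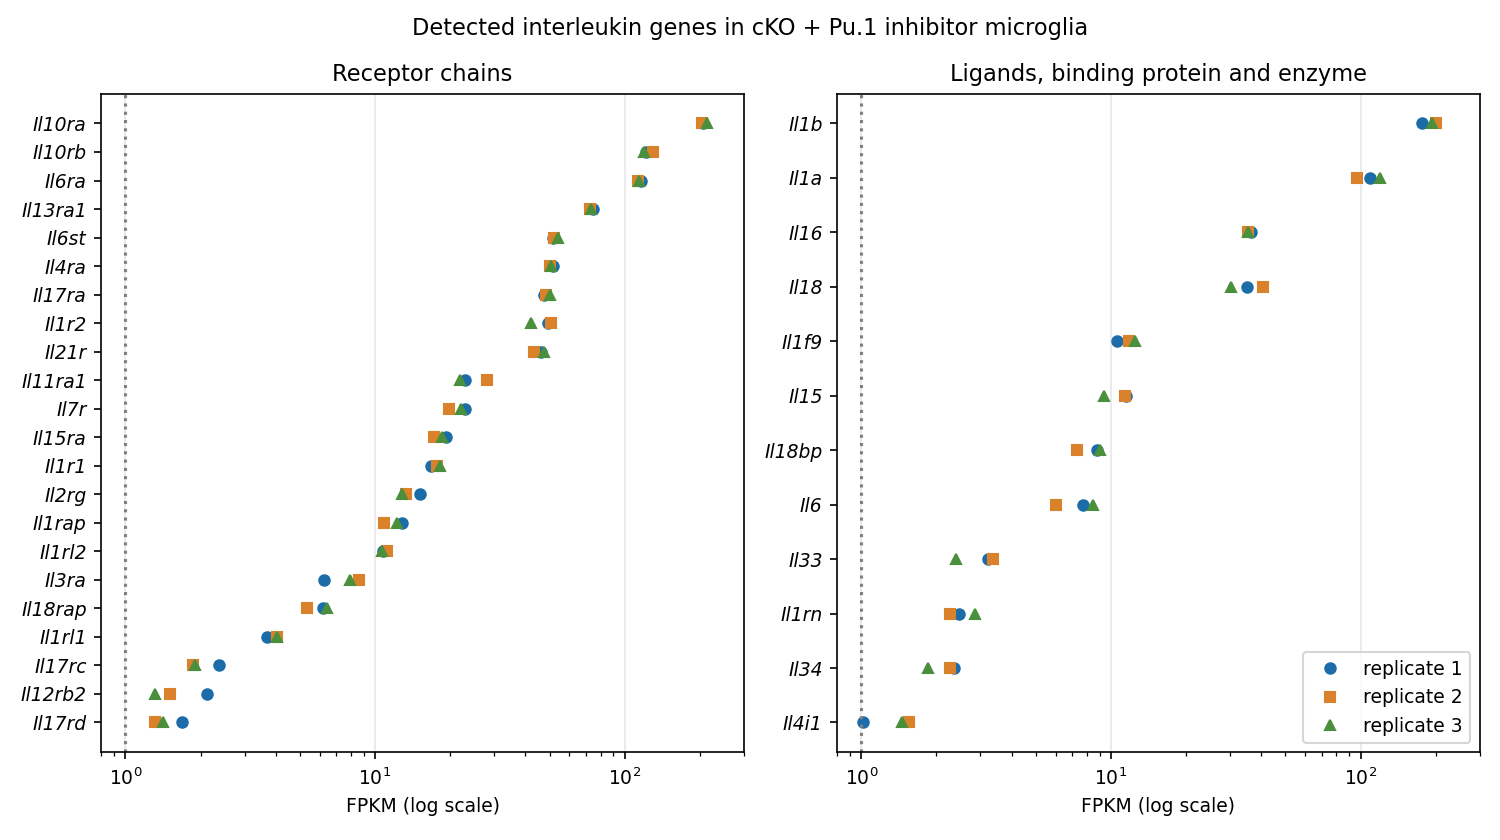
FPKM (log axis) of the 34 detected genes, receptor chains on the left and ligands with Il18bp and Il4i1 on the right, 1 symbol per replicate and a dotted line at the detection level of 1 FPKM. Il10ra leads the receptor chains, and Il1b and Il1a stand apart from the other ligands, all of which are under 41 FPKM.

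Among the ligands, Il1b and Il1a were by far the most abundant in FPKM. Il1b had 176, 201 and 193 FPKM in replicates 1, 2 and 3, a mean of 189.9 ± 13.0 (SD, n = 3, as for all means given in this form), which placed it at rank 401 of all genes. Il1a had 109, 96.8 and 119.8 FPKM, a mean of 108.5 ± 11.5, at rank 694. Il1b was the higher of the pair in every library, and its lowest value exceeded the highest of Il1a. The ratio of Il1b to Il1a in FPKM was 1.61, 2.08 and 1.61, a mean of 1.77 ± 0.27. In estimated counts, which do not allow for transcript length, it was 0.996, 1.28 and 0.996, so in replicates 1 and 3 the reads were divided almost evenly. Together Il1a and Il1b made up 72.7 ± 1.71% of the summed FPKM of the 39 ligands. Their lead over Il16 depended on the allowance for transcript length. In normalised CPM Il1b was at 198.6 ± 13.5, Il1a at 183.7 ± 19.3 and Il16 at 168.4 ± 2.51.

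Both genes lie on chromosome 2 (GRCm38), on the minus strand, at 129364570 to 129371139 (Il1b) and 129299610 to 129309972 (Il1a). Their start-site windows are printed because these transcripts carry most of the ligand signal, and that of Il6 because it is a cytokine of inflammation from another family. Each runs from 250 bases before to 50 after the start (RefSeq, GRCm38.p6), at chr2:129371090-129371389 on the minus strand for Il1b, chr2:129309923-129310222 on the minus strand for Il1a and chr5:30012864-30013163 on the plus strand for Il6. Capitals mark matches, on either strand, to GAGGAA (a core bound by Pu.1 and its ETS relatives), TGACTCA (AP-1), an NF-kB-type motif (3 G, any 2 bases, 3 T and 2 C) and TATAAA (the TATA box).
Il1b: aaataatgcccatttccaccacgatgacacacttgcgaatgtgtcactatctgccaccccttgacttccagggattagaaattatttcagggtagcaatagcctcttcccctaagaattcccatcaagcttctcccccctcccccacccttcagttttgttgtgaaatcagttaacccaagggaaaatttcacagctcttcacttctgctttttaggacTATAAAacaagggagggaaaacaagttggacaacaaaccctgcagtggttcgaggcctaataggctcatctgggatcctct
Il1a: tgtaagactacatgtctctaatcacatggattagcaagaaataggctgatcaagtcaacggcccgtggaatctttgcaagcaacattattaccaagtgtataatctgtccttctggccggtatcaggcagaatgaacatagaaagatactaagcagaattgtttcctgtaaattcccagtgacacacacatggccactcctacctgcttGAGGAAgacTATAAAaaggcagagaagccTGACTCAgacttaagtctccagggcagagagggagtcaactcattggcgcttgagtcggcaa
Il6: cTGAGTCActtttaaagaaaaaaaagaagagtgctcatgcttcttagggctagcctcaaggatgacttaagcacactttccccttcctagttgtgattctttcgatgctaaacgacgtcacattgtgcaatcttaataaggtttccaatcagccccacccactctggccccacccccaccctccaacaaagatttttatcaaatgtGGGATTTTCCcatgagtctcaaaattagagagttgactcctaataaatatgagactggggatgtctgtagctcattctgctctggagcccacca

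The Il1b window holds a TATA box 31 bases before the start and none of the other 3 motifs. In the Il1a window, the Pu.1 core, the TATA box and the AP-1 motif all lie within bases 210 to 245, and no match overlaps another in these 3 windows. The Il6 window holds the NF-kB-type motif 44 bases before the start and TGACTCA, on the minus strand, at bases 2 to 8. Windows were found for 66 of the 83 genes, and a gene with several start sites was counted once. GAGGAA occurred for 10 of 29 detected genes, 17 of 37 undetected ones and 31.3% of all genes with a window. TGACTCA occurred for 5 of 29 and 7 of 37, against 5.95% of all genes, and the NF-kB-type motif for 5 of 29 and 2 of 37, against 1.89%. TATAAA occurred for 6 of 29 and 7 of 37, against 15.7%.

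The genes of the antagonist and the decoy receptor of IL-1 differed widely. Il1rn, the gene of the IL-1 receptor antagonist (chromosome 2, 24336853 to 24351494), had 2.46, 2.27 and 2.84 FPKM, a mean of 2.52 ± 0.29 from 78 to 102 counts per library. Il1b exceeded it 76.0 ± 11.1 times and Il1a 43.0 ± 1.1 times in FPKM. Il1r2, which encodes the decoy receptor, had 49.2, 50.7 and 42.0 FPKM, a mean of 47.3 ± 4.66. Il1r1, the signalling receptor, had 16.8, 17.7 and 18.1 FPKM, and its partner chain Il1rap 12.8, 10.8 and 12.3 FPKM. The decoy transcript thus exceeded the signalling one 2.7 ± 0.34 times in FPKM, while in counts the ratio of Il1r2 to Il1r1 was 0.643 ± 0.080, so its direction depended on the allowance for transcript length. Il1r2 and Il1b are also genes of neutrophils, all 12 of whose marker genes were detected, and Il1r1 a gene of brain endothelium, all 7 of whose markers were. The part of those cells in these values was not tested.

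Other members of the IL-1 family were present at lower levels. Il18, which encodes another cytokine cut by caspase-1, had 35.0, 40.7 and 30.4 FPKM, and its binding protein gene Il18bp 8.82, 7.28 and 9.05 FPKM, a ratio of 4.30 ± 1.15. Of the IL-18 receptor chains, Il18rap had 6.19, 5.33 and 6.42 FPKM. Il18r1, the chain that binds the cytokine, had 0.80, 0.76 and 0.49 FPKM from 53, 32 and 25 counts, under the detection level of 1 FPKM but over one of 10 counts. Il1f9, the gene of IL-36γ, had 10.6, 11.8 and 12.5 FPKM, and the receptor chain for IL-36, Il1rl2, 10.8, 11.2 and 10.6 FPKM. The other IL-36 agonist genes, Il1f6 and Il1f8, had no count. Il33, a nuclear alarmin that oligodendrocytes and astrocytes are known to make, had 3.23, 3.36 and 2.39 FPKM, and its receptor chain Il1rl1 3.70, 4.06 and 4.03 FPKM. Oligodendrocyte and astrocyte markers were all detected beside it, and their part in the Il33 value was not tested. The neuronal relatives Il1rapl1 and Il1rapl2 were at 0.05 ± 0.04 FPKM and at 0 counts.

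Several of these genes are neighbours on the chromosome, and their levels differed within most groups shown. On chromosome 1, from 40074079 to 40551705, lie Il1r2, Il1r1, Il1rl2, Il1rl1, Il18r1 and Il18rap in that order, of which all but Il18r1 were detected. Il1rl1 and Il18r1 are 136 bases apart. On chromosome 2, from 24153161 to 24351494, Il1f9 and Il1rn were detected while the 4 genes in between or beside them (Il1f8, Il1f6, Il1f5 and Il1f10) had at most 2 counts in a library. Il4ra and Il21r, 23954 bases apart on chromosome 7, had a ratio of 1.11 ± 0.05 in FPKM and 2.3 ± 0.09 in estimated counts. In all, 37 of the genes fell into 13 groups with gaps of at most 200000 bases, and in 5 of these groups no member was detected. These were Il17a with Il17f, Il24, Il20, Il19 and Il10, Il22ra2 with Il20ra, the helper T cell cytokine genes Il4, Il13 and Il5, and Il2 with Il21.

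**Figure D2:**
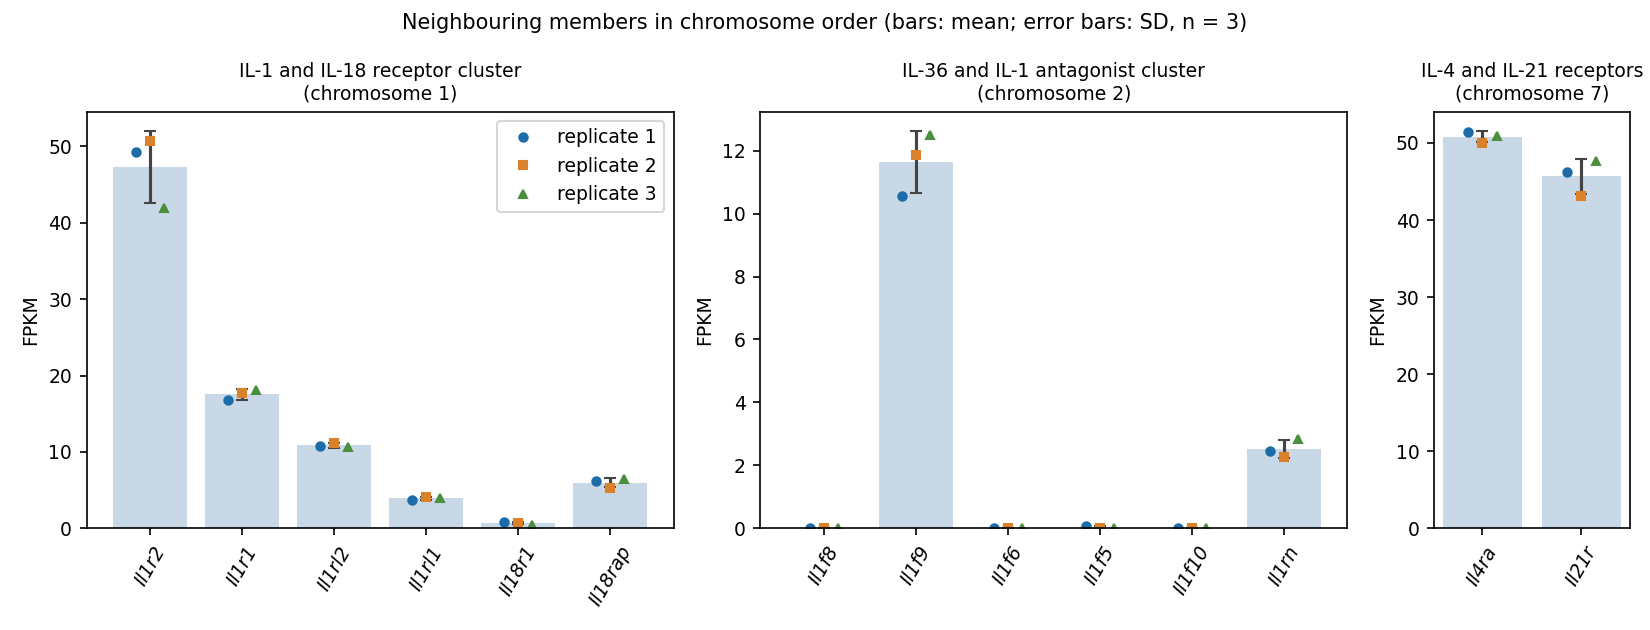
FPKM of neighbouring genes in their order along the chromosome for the IL-1 and IL-18 receptor group, the IL-36 and IL-1 antagonist group and the Il4ra and Il21r pair. Bars are means, error bars SD (n = 3) and symbols replicates. In the first group Il1r2 is highest and Il18r1 lowest, at 47.3 and 0.68 FPKM.

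Outside the IL-1 family, 4 ligands were detected. Il16, whose protein is a chemoattractant cut from a larger precursor, had 36.4, 35.5 and 35.4 FPKM, the smallest relative spread among the detected ligands. Il15, which supports NK and memory T cells, had 11.5, 11.4 and 9.39 FPKM. Il6 had 7.72, 6.01 and 8.49 FPKM from 107, 76 and 112 counts. Il34, made largely by neurons in the brain, had 2.34, 2.27 and 1.85 FPKM from 60, 52 and 45 counts, while the neuronal markers Rbfox3 and Syt1 were at 0.06 ± 0.02 and 0.19 ± 0.11 FPKM and Stmn2, the highest of that list, at 14.2 ± 0.92 FPKM. The part of neurons in the Il34 value was not tested. By mean FPKM, the 10 detected ligands ranked as Il1b, Il1a, Il16, Il18, Il1f9, Il15, Il6, Il33, Il1rn and Il34. Of the 9 pairs of neighbours in this order 4 overlapped between libraries, namely Il16 with Il18, Il1f9 with Il15, Il33 with Il1rn and Il1rn with Il34.

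The other ligands were not detected, and many were near or at the counting floor. Il10, the main anti-inflammatory interleukin, had 8, 12 and 0 counts (0.45, 0.75 and 0 FPKM). Il12a had 4, 0 and 3 counts and Il12b, the subunit shared by IL-12 and IL-23, 0, 8 and 16 counts, and Il23a had no count. Il27 had 4, 10 and 5 counts, which gave 0.55, 1.51 and 0.72 FPKM, whereas Ebi3, the gene of the other subunit of IL-27, was at 19.5 ± 0.96 FPKM. None of the 6 IL-17 family ligands was detected: Il17b and Il17c had no count, and Il25, the highest, had 13, 7 and 3 counts. Il2, Il3, Il5, Il9, Il11, Il19, Il20, Il24 and Il31 also had no count. The remaining undetected ligands, Il1f5, Il4, Il7, Il13, Il17a, Il17d, Il17f, Il21 and Il22, averaged at most 0.32 FPKM.

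Among the receptors, the chains for IL-10, IL-6 and IL-4 or IL-13 were the most abundant. Il10ra, the IL-10 binding chain (chromosome 9, 45253837 to 45269149), had 206, 204 and 213 FPKM, a mean of 207.5 ± 4.79, the highest of all 83 genes and rank 360 in the table. Il10rb, the chain that IL-10 shares with IL-22 and the lambda interferons (chromosome 16, 91406164 to 91425834), had 121, 129.6 and 119.8 FPKM. The ratio of Il10ra to Il10rb was 1.68 ± 0.10, so both chains of the IL-10 receptor were abundant while its ligand gene was not detected. Il6ra, the IL-6 binding chain (chromosome 3, 89864059 to 89913196), had 116, 113 and 114 FPKM. Il6st, which encodes gp130 (chromosome 13, 112464070 to 112510086), had 51.5, 52.1 and 54.0 FPKM, and its ratio to Il6ra was 0.460 ± 0.015. Il10ra, Il10rb and Il6ra together made up 48.9 ± 0.25% of the summed FPKM of the receptor chains.

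Il4ra, the chain that binds IL-4 (chromosome 7, 125552120 to 125579474), had 51.4, 50.01 and 50.9 FPKM. Il13ra1, its partner in the type II receptor for IL-4 and IL-13 (chromosome X, 36112110 to 36171259), had 74.6, 72.9 and 73.5 FPKM. The ratio of Il13ra1 to Il4ra was 1.45 ± 0.007, the smallest relative spread of the 5 ratios fixed for this report (the others being Il1b to Il1a, Il1b to Il1rn, Il6st to Il6ra and Il10ra to Il10rb). Il2rg, the common gamma chain that Il4ra joins in the type I receptor, was lower, with 15.1, 13.3 and 12.8 FPKM, and Il4ra exceeded it 3.72 ± 0.28 times. Il13ra2, a decoy for IL-13, was not detected (0.28 ± 0.08 FPKM).

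The receptor chains that pair with the common gamma chain differed widely. Il21r had 46.2, 43.1 and 47.6 FPKM, Il7r 22.9, 19.8 and 22.1 FPKM and Il15ra 19.3, 17.3 and 18.6 FPKM. Il2rb, the signalling chain for IL-2 and IL-15, had 0.80, 1.53 and 0.86 FPKM from 33, 58 and 34 counts, so it reached 1 FPKM in replicate 2 alone. Il2ra was at 0.20 ± 0.11 FPKM and Il9r had no count. The ligand and the binding chain of IL-15 were therefore both detected and a signalling chain was not, but Il2rb counted as detected at a mean of 1 FPKM, or at 0.5 FPKM, 1 TPM or 10 counts in all 3 libraries. Il2rb is a gene of NK and T cells. The 10 markers of those cells summed to 18.6, 22.7 and 16.1 FPKM, a peak in replicate 2 that rested on Gzma (7.60, 13.6 and 9.41 FPKM), since the other 9 summed to 11, 9.08 and 6.64 FPKM. The part of those cells was not tested.

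Of the remaining receptor families, Il17ra, the chain common to IL-17 receptors, stood out with 47.6, 48.4 and 50.2 FPKM. Its partner for IL-17A and IL-17F, Il17rc, had 2.37, 1.86 and 1.90 FPKM, 24.2 ± 3.54 times less. The partners for IL-25 and IL-17C, Il17rb and Il17re, were not detected (0.11 ± 0.11 and 0.28 ± 0.27 FPKM), and Il17rd was at 1.47 ± 0.19 FPKM. Il11ra1 had 22.8, 28.0 and 21.8 FPKM. Il3ra had 6.22, 8.65 and 7.91 FPKM, and the beta chain it shares with other receptors, Csf2rb, was at 37.8 ± 1.64 FPKM. For IL-12, Il12rb2 had 2.12, 1.51 and 1.31 FPKM and Il12rb1 0.18, 0.47 and 0.07 FPKM from 8, 19 and 3 counts. Il27ra had 0.15, 0.91 and 0.46 FPKM from 6, 34 and 18 counts. Il20rb, at 1.09 ± 0.19 FPKM, missed detection in replicate 3 with 0.95 FPKM, and Il5ra, Il20ra, Il22ra1, Il22ra2, Il23r and Il31ra averaged at most 0.36 FPKM. The 22 detected chains formed 21 pairs of neighbours in order of level, of which 9 overlapped between libraries, among them Il4ra with Il17ra, Il17ra with Il1r2 and Il1r2 with Il21r.

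Receptors act as assemblies, so the chains were read together. Of 27 receptors for interleukins, 13 had every chain detected. Of these, 5 also had a detected ligand gene, namely those for IL-1, IL-33, IL-36, IL-6 and IL-34, and 8 did not, namely those for IL-10, IL-11, IL-3, IL-7, IL-21, IL-17A and IL-17F, and the type I and type II receptors for IL-4. In 2 cases, IL-15 and IL-18, the ligand was detected and a chain was not. That count depended on the detection rule: it was 1 (IL-18) with a mean of 1 FPKM and 0 with 10 counts in all 3 libraries, where complete receptors with a ligand numbered 7 of 15. With 0.5 FPKM or 1 TPM in all 3 libraries it stayed at 2, but the cases were IL-18 and IL-27. In the remaining 12 neither condition was met at 1 FPKM, and the 3 without any detected chain were the receptor for IL-23 and both types of receptor for IL-20. For IL-34 the receptor gene, Csf1r, was at 2370.2 ± 54.3 FPKM, 1112.4 ± 145 times Il34.

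**Figure D3:**
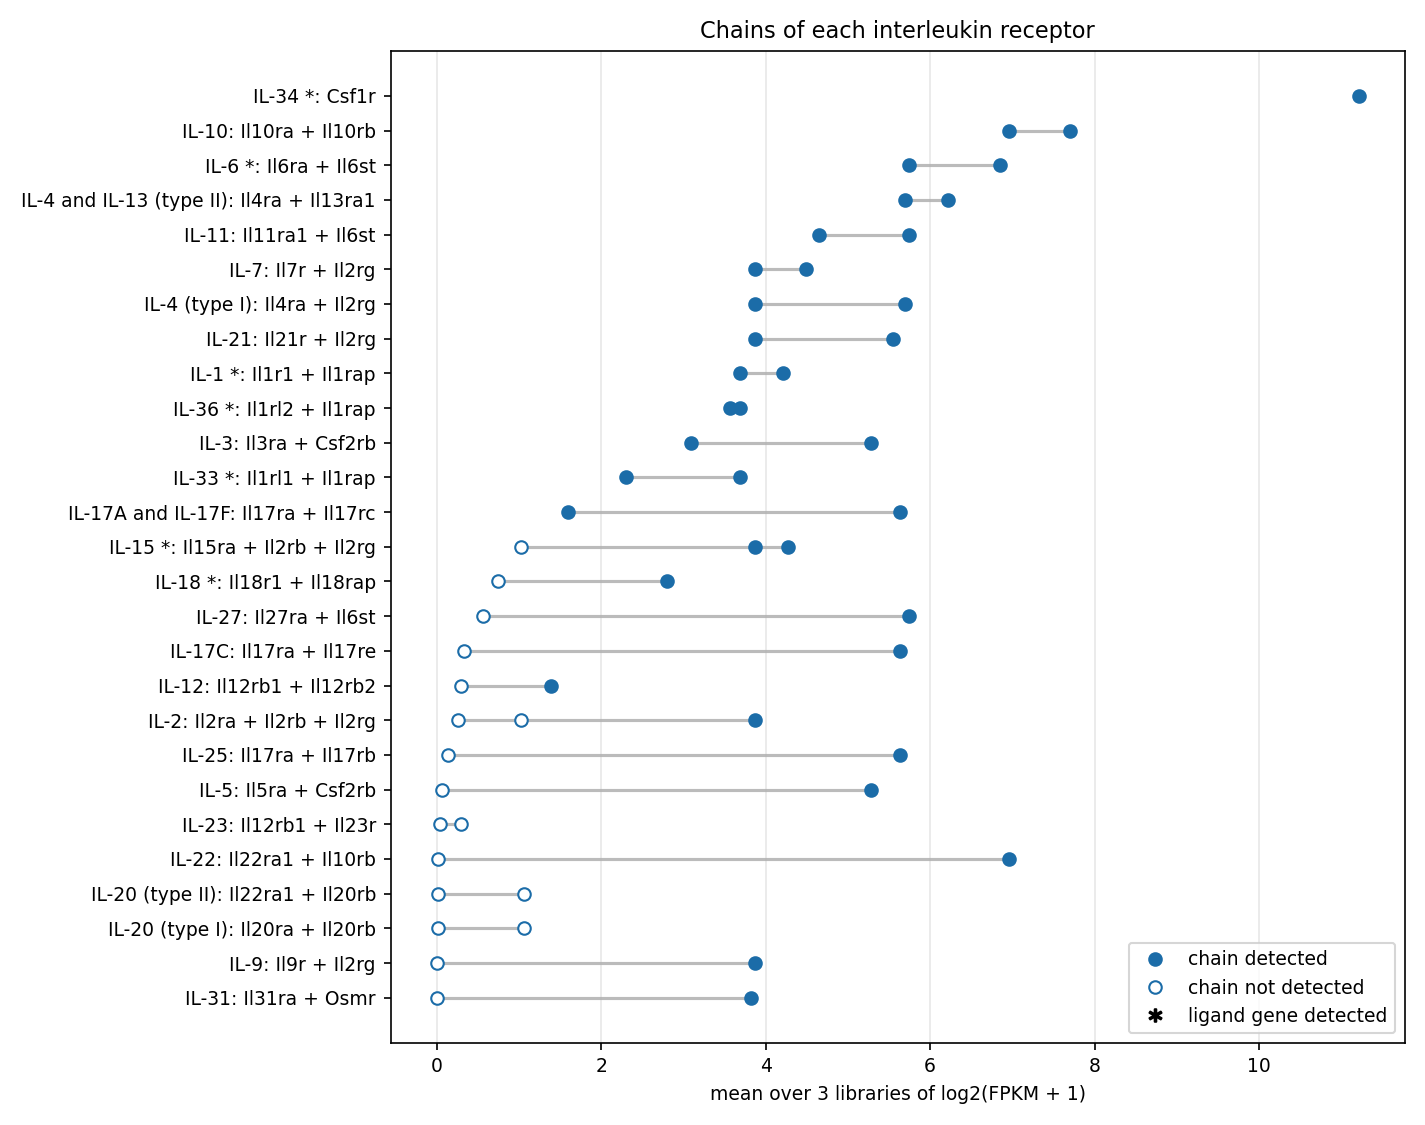
Mean over 3 libraries of log2(FPKM + 1) for each chain of 27 interleukin receptors, ordered by their lowest chain. Filled circles are detected chains and open circles undetected ones, a line joins the chains of a receptor, and an asterisk marks a detected ligand gene. The receptors for IL-10, IL-6 and the type II receptor for IL-4 and IL-13 follow that for IL-34, and in 14 receptors at least 1 chain is not detected.

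The genes that process interleukins and carry their signals were mostly detected. For comparison, 55.5% of the protein-coding genes were detected, and their median was 1.88 ± 0.02 on the log2(FPKM + 1) scale. For IL-1 maturation and release, 10 of 11 genes were detected, with a median level of 5.12 ± 0.05 on the log2(FPKM + 1) scale. The membrane rupture protein gene Ninj1 was at 111 ± 6.42, the ATP-gated channel gene P2rx7 at 79.6 ± 2.30 and Casp8 at 60.2 ± 2.24 FPKM, and the inflammasome sensor gene Nlrc4 was lowest at 0.84 ± 0.06. All 17 genes of IL-1 and IL-18 receptor signalling were detected (median 4.68 ± 0.01), led by the NF-kB regulators Nfkbia at 539.9 ± 10.2 and Nfkbiz at 112 ± 11.1 and the adaptor gene Tab2 at 108 ± 6.79, with Irak3 at 4.52 ± 0.84 FPKM. All 17 JAK-STAT genes were detected (median 4.47 ± 0.01), led by the feedback inhibitor Socs3 at 254 ± 11.8, the phosphatase gene Ptpn6 at 102 ± 6.29 and Jak1 at 81.2 ± 3.50, with Stat4 at 1.26 ± 0.20 FPKM. Of the 8 genes of IL-17 receptor signalling 7 were detected (median 3.96 ± 0.07). The NF-kB inhibitor gene Tnfaip3 was at 142 ± 16.3 and the ribonuclease gene Zc3h12a at 15.6 ± 1.77 FPKM, with Nfkbiz between them, while Traf3ip2, which encodes the adaptor that IL-17 receptors require, was at 0.78 ± 0.20 FPKM and not detected.

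Partner receptor chains without an Il symbol were detected in 12 of 14 cases (median 3.98 ± 0.06), led by Csf1r, the tetraspanin gene Cd9 at 470.5 ± 10.1 and Csf2rb, with Ifnlr1 lowest at 0.24 ± 0.03 FPKM. Partner ligands were detected in 6 of 11 cases (median 1.06 ± 0.04), led by Osm, a cytokine of the gp130 family, at 56.9 ± 4.72, Ebi3 and the growth factor gene Csf1 at 14.3 ± 1.10 FPKM, and Csf2 and Cd70 had no count. Cd70 encodes a ligand of the TNF family rather than of an interleukin family, and counting it lowers the share detected and the median of this list. As among the genes with an Il symbol, the ligand list had the lower median. With Cd70 counted, its share detected (54.5%) was near that of the protein-coding genes (55.5%), and its median was under theirs (1.88 ± 0.02).

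**Figure D4:**
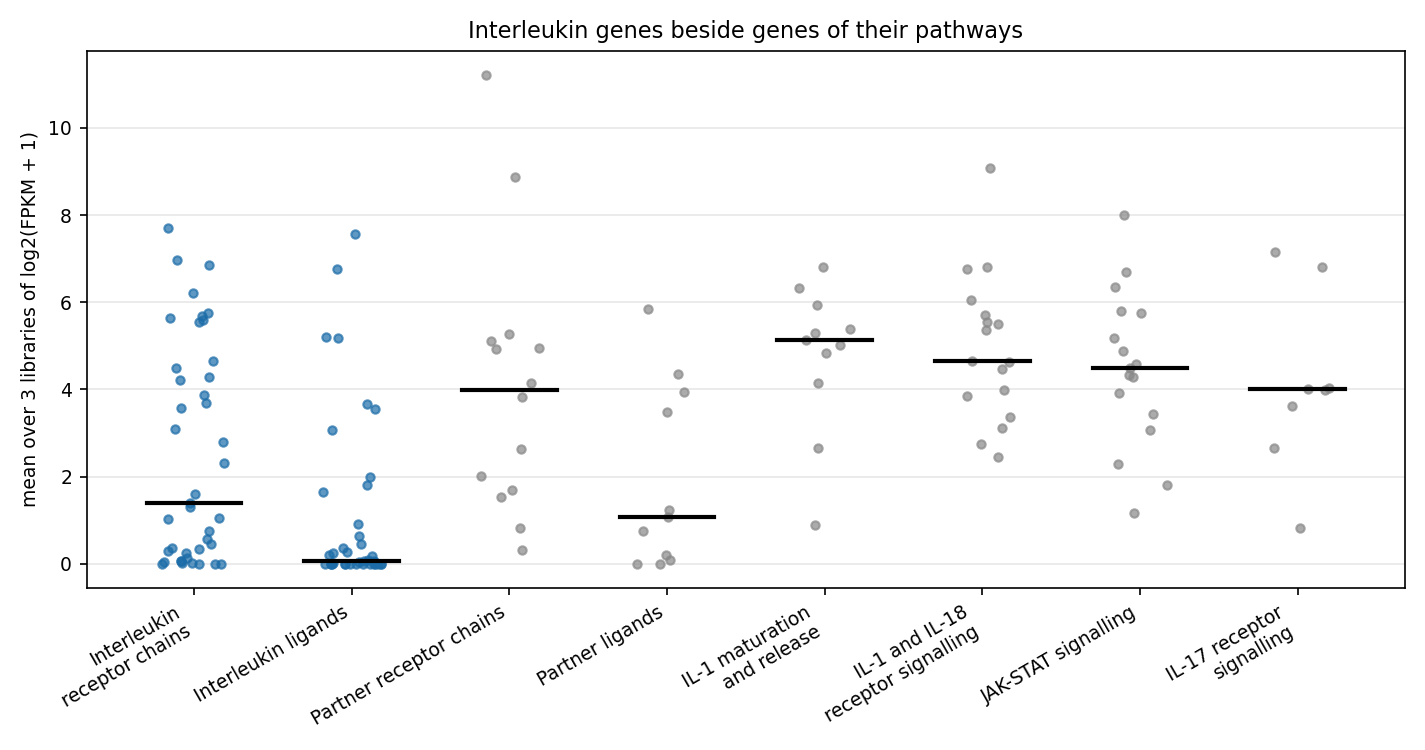
Mean over 3 libraries of log2(FPKM + 1), 1 point per gene, for interleukin receptor chains and ligands and for 6 lists of pathway genes, with the median of the plotted values as a bar. Points are shifted sideways at random for legibility. Signalling and maturation genes lie mostly above 2, whereas most ligands lie near 0.

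The final comparison asked how far the 3 libraries differed from one another in these genes. Counts were compared by a chi-square test for equal normalised levels, which with Benjamini-Hochberg adjustment over the 13246 genes kept by edgeR's filter called 14 of the 39 genes tested here (35.9%), against 41.4% of all genes tested. This compares libraries, not conditions, and the share lay near that of all genes. Without replicate 1, 2 or 3 it called 10 of 41, 5 of 39 and 8 of 39 of the genes, against 28.3, 18.7 and 23.5% of all genes tested. Among the 39 genes, the lowest p-values from this test, adjusted over all genes tested, were those of Il1a (4.92e-13) and Il1b (3.81e-06). In replicate 2 Il1a was at its lowest and Il1b at its highest FPKM. Their coefficients of variation (CV) of normalised CPM were 10.5 and 6.81%, where counting error alone gives 1.82 and 1.75%. At the other end, Il13ra1 varied by 1.14%, Il4ra by 1.37% and Il6ra by 1.28%, where counting error gives 1.55, 1.58 and 1.32%. With the spread that edgeR estimates as common to all genes (a coefficient of variation of 0.0827) added to counting error, 0 of the 39 genes passed, against 1.4% of all genes tested, and 3 had an unadjusted p under 0.05. That spread was estimated from these same 3 libraries, so few calls were to be expected and the result cannot show that the libraries were alike.

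**Figure D5:**
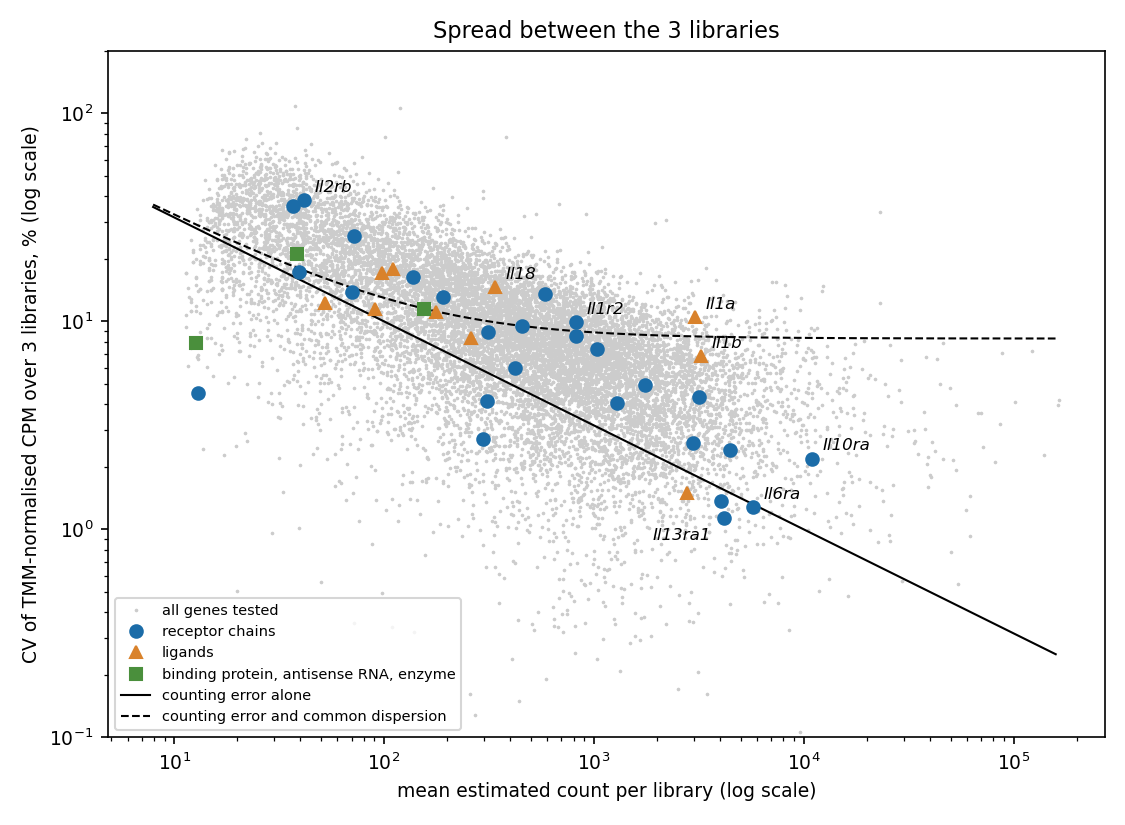
CV over the 3 libraries of TMM-normalised CPM against the mean estimated count per library, both on log axes, for the 13246 genes tested (grey) and the 39 interleukin genes among them. Lines give counting error alone and counting error with edgeR's common dispersion. Il1a and Il1b lie well above the first line, and Il13ra1 and Il6ra lie on or under it.

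Some values carry limits from the annotation. Il4i1, at 1.34 ± 0.28 FPKM, shares 83.9% of its exon bases with Tbc1d17 on the opposite strand, which had 30.01 to 30.9 FPKM, and Il12rb2 shares 40% with Serbp1, also on the opposite strand. The strand setting of the counting is not given here, and reads of such pairs cannot be told apart. Il1a shares 11.2% of its exon bases with Gm14023 on the opposite strand, which had 4.06, 2.04 and 4.38 FPKM in replicates 1, 2 and 3. Il1bos (0.69 ± 0.05 FPKM) shares 0.8% of its exon bases with Il1b. On the same strand, Il2rg shares 30.5% of its exon bases with Gm20489 and Il10rb 14.9% with Gm21970. Neither Gm20489 nor Gm21970 is among the genes tabulated, and the counts of Il2rg and Il10rb were whole. Counts that were not whole occurred for 3 of the genes, Il11ra1, Il1a and Il1rap, so some of their reads may be divided with other genes. Il11ra2, a near-identical copy of Il11ra1, had no count, and reads of these copies may not be told apart.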

How the data were processed

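RNA-seq of total RNA from 3 samples of 1 group was analysed. The tools named are STAR (version 2.7.9a) and RSEM, with DESeq2, and the builds GRCm38 and mm10, per the submitters' processing notes. Settings, strand and annotation were not given in the sources. The authors deposited estimated counts per gene, not normalised, and FPKM values, which divide counts by depth and effective transcript length. There were 0 columns of other samples. The 83 genes, the roles, the lists, ratios and tests were chosen with earlier results of these data known. Values in each library were given for members averaging at least 5 FPKM and for a fixed list of cytokines and chains; of pathway genes outside them, the 3 highest and 1 lowest of each list.

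Detection meant at least 1 FPKM in every library, and list levels were medians of log2(FPKM + 1). With 1 group no contrast could be fitted. Rounded counts were filtered and TMM-normalised in edgeR 4.0.16 (R 4.3.3). A chi-square test of homogeneity with Benjamini-Hochberg adjustment at 0.05 was run in SciPy 1.17.1, checked on simulated data. The simulated counts had counting error alone, so the check could not show how the test behaves with further spread between libraries. Alternatives were other detection rules, units, pseudocounts, DESeq2 1.42.0 size factors, no filter, common dispersion and leaving out each replicate. Coordinates are from GENCODE M21 (GRCm38), in which 82 of the 83 symbols matched 1 gene. Labels name no separate animals, so errors measure only the spread between samples.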

Additional observations from a re-analysis of the deposited data

How the results depend on the processing

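The numbers detected among all 83 genes (34 to 39), ligands (10 to 12) and receptor chains (22 to 26) stayed within 1.5 times their values under each detection rule and class assignment tried and without each replicate; pathway and cell type lists were not rerun. Complete receptors numbered 13 to 15, and those with a detected ligand and an undetected chain 1 with a mean of 1 FPKM and 0 with 10 counts, against 2. The receptor median exceeded the ligand median under each setting, by 3.85 log2 units with a pseudocount of 0.1, 1.97 in TPM, 2.40 in normalised CPM and 1.64 among genes with a count, and by 1.28 to 1.46 without 1 replicate. The classes by letter alone and the receptor counts under other rules were chosen after seeing the data. In estimated counts the ratios were 1.09 for Il1b to Il1a, 36.2 for Il1b to Il1rn, 0.776 for Il6st to Il6ra, 3.45 for Il10ra to Il10rb and 1.04 for Il13ra1 to Il4ra, since counts do not allow for length. Those of Il18 to Il18bp, Il4ra to Il2rg, Il17ra to Il17rc and Csf1r to Il34 were 2.25, 13, 42.7 and 2701.6. Without 1 replicate the first 5, in FPKM, were 1.61 to 1.84, 69.7 to 80.0, 0.452 to 0.468, 1.64 to 1.74 and 1.45. Genes whose counts differed between libraries numbered 0 of 39 with the common dispersion and 21 of 64 without a filter, against 1.4 and 37.8% of all genes tested. Without replicate 1, 2 or 3 they numbered 10 of 41, 5 of 39 and 8 of 39, against 28.3, 18.7 and 23.5%. Leaving out a replicate also leaves fewer samples. No paired analysis was possible because there is 1 group. Depth limits genes under about 10 counts.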
